A study of Mus musculus with 9 samples.

Results

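The 10 genes described here encode the interleukin-1 (IL-1) family and the inflammatory caspases: the ligands Il1a, Il1b, Il18 and Il33, the receptor antagonist Il1rn, the receptors Il1r1, Il1rl1 and Il1rap, and the proteases Casp1 and Casp4. They are 10 of the 28059 gene IDs in the deposited table and were matched by symbol through their Entrez numbers. The set was selected on measured values: it was chosen because the RPKM of Casp1, Il33 and Il1rn is higher in both Cdk8 knockout clones than in the parental cells. The differences between each clone and the parental cells are therefore given for these 10 genes as values without a test.

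RNA was sequenced from YAMC cells, a mouse intestinal line derived from young adult mouse colon, although the labels give small intestine as the tissue. All cells were grown at 32 °C and harvested in logarithmic phase, and Cdk8, which encodes a kinase of the Mediator complex, had been knocked out by CRISPR. The 3 groups, with 3 libraries each, were parental wildtype cells, the Cdk8 -/- line clone 1 and the Cdk8 -/- line clone 19. Each knockout line is 1 clone and a clone that kept Cdk8 was not analysed here, so the knockout itself and the picking of a single clone cannot be told apart.

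IL-1 family ligands are alarm signals. IL-1α and IL-33 can act when cells are damaged, whereas IL-1β and IL-18 are made as inactive precursors that caspase-1 cuts once an inflammasome, a complex of a sensor and an adaptor, has formed. Caspase-1 and the protein of mouse Casp4, also called caspase-11, further cleave gasdermin D, which opens pores and ends in the inflammatory cell death named pyroptosis. Ligand binding joins a specific receptor chain to an accessory chain, and the signal runs through MyD88 and IRAK kinases to NF-κB.

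Library depth, estimated from low genes that were taken to hold 1 read, ran from 23.2 to 44.2 megareads. Cdk8 RNA, the check of the labels, was lower in both clones but not lost: 17.5, 17.7 and 17.5 RPKM (reads per kilobase of gene and per megaread) in the parental libraries, 10.3, 11.1 and 11.6 in clone 1, and 10.5, 10.3 and 10.3 in clone 19. Defining markers of the intestinal epithelium were near 0, with Cdx2 at 0 in all libraries and 11 of 15 markers, Epcam, Vil1, Lgr5 and Muc2 among them, under 0.5 RPKM in every library. The keratins Krt8, Krt18 and Krt19 made up nearly all of the epithelial sum, which ran from 614 to 632 RPKM in parental libraries, 986 to 1040 in clone 1 and 969 to 976 in clone 19. All 10 fibroblast and all 9 mesothelial markers passed the filter on low values. The mesothelial sum was 1090 RPKM in the parental libraries, 1920 to 1970 in clone 1 and 2000 to 2010 in clone 19, and its part in the results that follow was not tested. Upk3b and Upk1b made up most of it, and 7 of the 9 were higher in both clones, while Msln (-0.43 and -0.14) and Krt7 (-2.11 and -0.56 on the log2 scale) were lower. Immune cells make much of the IL-1 family in tissues. Of 18 immune markers, 17 were under 1 RPKM in every library and Cd3e, Ncr1 and Cpa3 were at 0, and the other one was the macrophage-associated Cd68, which other cells express too. The immune sum ran from 4.3 to 4.73 RPKM in parental libraries, 3.64 to 4.26 in clone 1 and 3.63 to 4.8 in clone 19.

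**Figure D1:**
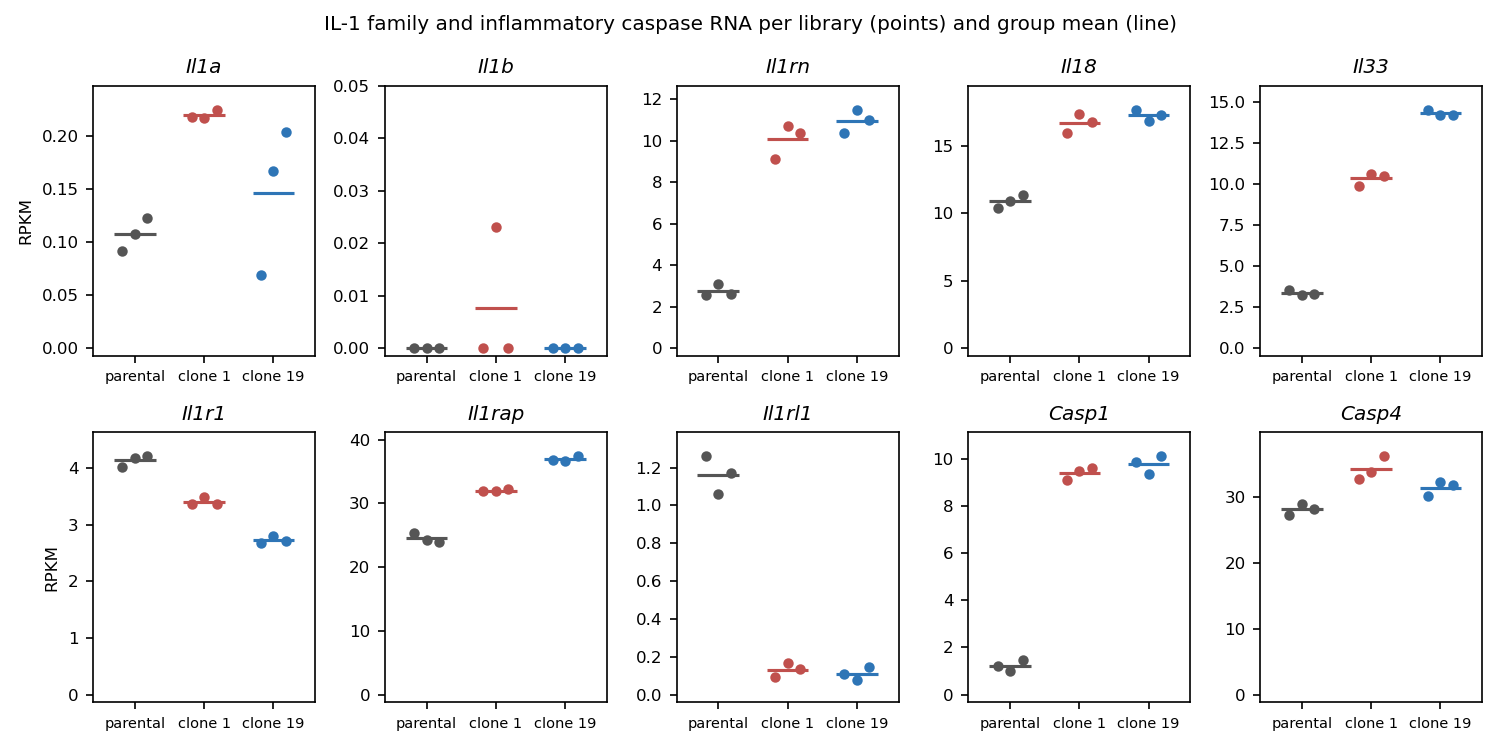
RPKM of the 10 genes in each of the 9 libraries (points), by group, with the group mean as a line and a separate vertical axis for each gene. Casp1, Il33, Il1rn, Il18 and Il1rap are higher and Il1rl1 and Il1r1 lower in both clones, with no overlap with the parental libraries, while Il1a and Il1b stay under 0.3 RPKM.

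RPKM divides by gene length, so levels can be set in order across genes. In parental cells the order of mean RPKM was Casp4, Il1rap, Il18, Il1r1, Il33, Il1rn, Casp1, Il1rl1, Il1a and Il1b, and the only neighbours whose libraries overlapped were Casp1 and Il1rl1. Clone 1 kept Casp4, Il1rap and Il18 on top, followed by Il33, Il1rn and Casp1, where the libraries of Il1rn overlapped those of Il33 and those of Casp1. In clone 19, Il1rap stood first at 36.7 to 37.4 RPKM, above Casp4 at 30.1 to 32.3 RPKM, and Il18, Il33, Il1rn and Casp1 followed without overlap. Among all 28059 IDs the mean level of Casp1 moved from percentile 57.3 in parental cells to 75.3 in clone 1 and 75.9 in clone 19, whereas that of Il1rl1 moved from 57.0 to 47.4 and 45.9.

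A gene entered the test if it reached 1 RPKM in at least 3 of the 9 libraries, which 12568 genes did, 8 of the 10 described here among them. Il1a and Il1b stayed under the filter. Il1rl1 passed through its parental libraries only, so it had to be lower in the clones. The other 7 were 6 higher and 1 lower than parental cells in both clones, given here without a call. Among these, Casp1 was at 0.983 RPKM in parental replicate 2 and needed clone libraries to pass. At an adjusted p under 0.05 (limma, Benjamini-Hochberg over all tested genes), 72.4% of all tested genes were called in clone 1 (39.8% higher, 32.6% lower) and 69.0% in clone 19 (36.7% higher, 32.3% lower), with 30.7% higher and 25.8% lower in both. The libraries of the 8 genes did not overlap those of the parental cells, which held for 75.1% of tested genes in clone 1 and 73.5% in clone 19. Nothing is read from these counts because the choice of genes used the same comparisons. Casp1, Il1rn, Il33 and Il1rl1 differed at least 2-fold in both clones, a size at which 4.46% of tested genes were called in clone 1 and 4.07% in clone 19. The first 3 led to the choice of the set and Il1rl1 passed through its parental libraries only, so nothing is read from this either. Both comparisons share the parental libraries. Because these are bulk RNA samples, fewer cells with a transcript and less of it per cell cannot be told apart.

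**Figure D2:**
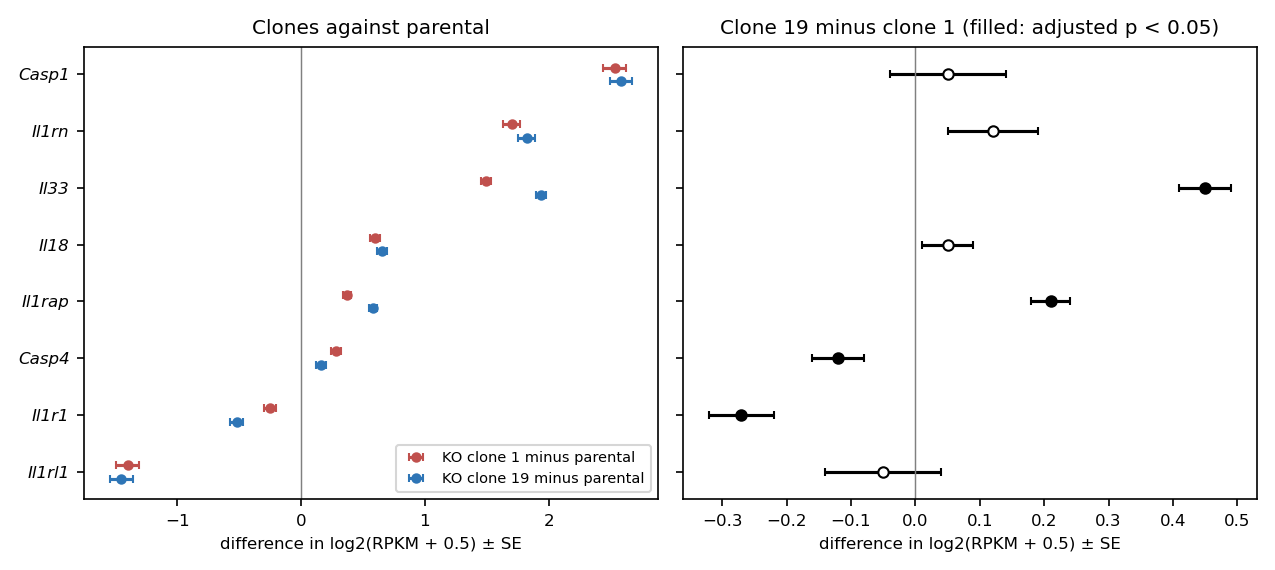
Differences in log2(RPKM + 0.5), with standard errors, for the 8 genes that passed the filter: each clone minus parental on the left, and clone 19 minus clone 1 on the right, where filled points have an adjusted p under 0.05. Casp1 is at 2.53 and 2.58 on the left and Il1rl1 at -1.40 and -1.45, and on the right Il33 and Il1rap are filled above 0 and Casp4 and Il1r1 below 0.

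Among the ligands, the RNA for both classical IL-1 proteins was close to 0. Il1b, the secreted pyrogen of activated macrophages, was listed at 0 in 8 libraries and at 0.0231 RPKM in clone 1 replicate 2, about 1.4 reads. Il1a, which encodes the precursor that is active without cleavage, stood at 0.0917, 0.108 and 0.123 RPKM in parental cells, 0.218, 0.217 and 0.225 in clone 1, and 0.069, 0.167 and 0.204 in clone 19. These values rest on an estimated 4 to 14 reads per library. The clone 1 libraries lay above the parental ones, and the clone 19 libraries spanned them. The deposited IDs also hold transcripts that overlap these genes, Gm14023 at Il1a and Il1bos at Il1b, and whether reads were assigned by strand is not given in the sources used here.

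Il18 encodes a ligand that many epithelia store as precursor and that is known for driving interferon-γ production by lymphocytes. Its RNA measured 10.4, 10.9 and 11.4 RPKM in the parental libraries, 16.0, 17.4 and 16.8 in clone 1, and 17.7, 16.9 and 17.3 in clone 19. Every clone library was above every parental one, and the libraries of the clones overlapped. The difference from parental cells was 0.60 ± 0.04 (SE) in clone 1 and 0.65 ± 0.04 in clone 19 on the log2(RPKM + 0.5) scale, which is used for every fold change here and understates the change of low genes. The overlapping genes Bco2 and Tex12 averaged at most 0.202 RPKM in any group.

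Il18bp, the secreted decoy that binds and neutralises IL-18, belongs to the list of other IL-1 ligands and binding proteins. It rose from a parental mean of 24.4 ± 1.0 RPKM (SD, n = 3) to 41.6 ± 0.483 (clone 1) and 39.3 ± 0.229 (clone 19) (log2 differences 0.76 and 0.68, adjusted p = 1.8e-09 and 4.9e-09, limma). The decoy thus stood above its ligand in every library: the ratio of Il18 to Il18bp RPKM ran from 0.437 to 0.454 in parental cells, 0.382 to 0.415 in clone 1 and 0.427 to 0.451 in clone 19. The other 5 genes of that list, the IL-36 ligands and their antagonist (Il1f6, Il1f8, Il1f9 and Il1f5 in the table) and Il1f10, were under the filter and at most 0.0749 RPKM.

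Il33 encodes a nuclear cytokine of barrier and stromal cells that is released upon damage. Its level was 3.54, 3.21 and 3.32 RPKM in parental cells, 9.89, 10.6 and 10.5 in clone 1, and 14.5, 14.2 and 14.2 in clone 19. No 2 groups overlapped, with clone 19 highest. The log2 fold change against parental cells was 1.49 ± 0.04 in clone 1 and 1.94 ± 0.04 in clone 19. The difference between the clones, which the choice of genes did not use, was 0.45 ± 0.04 on the log2 scale with a 95% interval of 0.36 to 0.54 (adjusted p = 2e-05, limma).

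Il1rn encodes the IL-1 receptor antagonist, which occupies the IL-1 receptor without signalling. Its RNA stood at 2.58, 3.08 and 2.63 RPKM in parental cells, 9.13, 10.7 and 10.4 in clone 1, and 10.4, 11.5 and 11.0 in clone 19. All 6 clone libraries lay above the parental ones, by 1.70 ± 0.07 in clone 1 and 1.82 ± 0.07 in clone 19 on the log2 scale. The clones were not told apart: clone 19 minus clone 1 was 0.12 with a 95% interval of -0.04 to 0.28 (adjusted p = 0.21, limma). The ratio of Il1rn to Il1a RPKM was 21.5 to 28.6 in parental cells, 41.9 to 49.3 in clone 1 and 54.1 to 150 in clone 19, with the few reads of Il1a in its denominator. Secreted and intracellular forms of the antagonist start from different promoters, and a value per gene does not separate them.

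The sequences before the annotated starts of Il33 and Il1rn are shown because these ligand genes are among the 3 that led to the choice of the set. Each is the 250 bases upstream of a RefSeq start on GRCm38.p6, 5′ to 3′ on the + strand, at chr19:29924863-29925112 and chr19:29945540-29945789 for both Il33 starts and chr2:24336610-24336859 for the first of 3 Il1rn starts. Capitals mark matches to TATAAA in Il33 and to the AP-1 motif TGANTCA in Il1rn.
Il33 start 1: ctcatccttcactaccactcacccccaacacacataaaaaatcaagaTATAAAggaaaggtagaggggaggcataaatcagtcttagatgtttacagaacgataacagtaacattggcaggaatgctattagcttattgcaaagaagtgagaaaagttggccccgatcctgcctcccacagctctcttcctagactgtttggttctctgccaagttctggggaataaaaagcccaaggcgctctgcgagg
Il33 start 2: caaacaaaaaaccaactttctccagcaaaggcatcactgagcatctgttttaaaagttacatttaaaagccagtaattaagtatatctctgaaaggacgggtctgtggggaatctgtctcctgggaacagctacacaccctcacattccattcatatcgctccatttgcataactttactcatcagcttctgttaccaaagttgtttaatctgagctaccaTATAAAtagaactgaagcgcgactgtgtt
Il1rn start 1: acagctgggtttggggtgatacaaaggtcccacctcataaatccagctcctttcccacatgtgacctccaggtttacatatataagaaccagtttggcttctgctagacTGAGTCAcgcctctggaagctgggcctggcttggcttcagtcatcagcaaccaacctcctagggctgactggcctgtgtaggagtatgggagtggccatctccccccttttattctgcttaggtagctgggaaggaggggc
5 motifs were searched on both strands of all 16 such windows of the 10 genes: TATAAA, AP-1 TGANTCA, the NF-κB consensus, the interferon-stimulated response element (ISRE) and the STAT element TTCNNNGAA. TATAAA lay 29 bases before Il33 start 2 and 203 bases before start 1, and 5 of the 16 windows held it, against 12.4% of all 32851 windows in the RefSeq table. AP-1 was found 141 bases before Il1rn start 1 and 12 bases before the Il1a start, in 2 of 16 windows against 6.75% of all. Neither the interferon nor the STAT element was found in the 16 windows, against 2.98% and 7.02% of all windows. Some of the 16 windows overlap each other, and a match describes letters, not a bound site.

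Of the 3 receptor genes, Il1r1 and Il1rl1 were lower and Il1rap higher in both clones. Il1r1, the signalling receptor for IL-1α and IL-1β, measured 4.02, 4.18 and 4.21 RPKM in parental cells, 3.36, 3.49 and 3.37 in clone 1, and 2.67, 2.80 and 2.71 in clone 19. The 3 groups did not overlap and clone 19 was lowest. On the log2 scale it was -0.25 ± 0.05 in clone 1 and -0.52 ± 0.05 in clone 19, and the clones differed by -0.27 (95% interval -0.38 to -0.17, adjusted p = 0.0008, limma). With the median deviation of the 50 nearest genes subtracted, that difference was -0.14 (adjusted p = 0.036, between 0.00023 and 0.0041 under the other settings, limma).

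Il1rap encodes the accessory chain that IL-1R1, ST2 and the IL-36 receptor all need. It was among the most abundant of the 10, at 25.4, 24.3 and 24.0 RPKM in parental cells, 31.9, 32.0 and 32.2 in clone 1, and 36.9, 36.7 and 37.4 in clone 19. Groups did not overlap, and the order was the reverse of that of Il1r1. The log2 fold change was 0.37 ± 0.03 in clone 1 and 0.58 ± 0.03 in clone 19, and clone 19 stood 0.21 above clone 1 (95% interval 0.15 to 0.26, adjusted p = 0.00011, limma). In each library the ratio of Il1r1 to Il1rap RPKM was 0.158 to 0.175 in parental cells, 0.105 to 0.109 in clone 1 and 0.0723 to 0.0764 in clone 19. The gene overlaps Gm20319, whose own level averaged 13.4, 17.9 and 19.8 RPKM in parental cells, clone 1 and clone 19, so the share of reads that belongs to Il1rap is uncertain. Membrane and soluble forms of the chain share the gene value.

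Il1rl1 encodes ST2, the receptor for IL-33, as a membrane and a soluble form. It stood at 1.26, 1.06 and 1.17 RPKM in parental cells, 0.0927, 0.167 and 0.137 in clone 1, and 0.108, 0.0774 and 0.145 in clone 19. All clone libraries were under 0.2 RPKM, an estimated 14.8 to 37.6 reads, against 206.8 to 384.9 reads in parental libraries. Mean RPKM was 8.82 times lower in clone 1 and 10.6 times lower in clone 19, while the fitted log2 difference was -1.40 ± 0.09 and -1.45 ± 0.09. That fitted size follows the pseudocount, at -2.46 and -2.60 with 0.1 and -0.94 and -0.96 with 1. The clones were not told apart (-0.05, 95% interval -0.26 to 0.15, adjusted p = 0.69, limma). The ratio of Il33 to Il1rl1 RPKM was 2.80 to 3.02 in parental libraries, 63.2 to 107 in clone 1 and 98.3 to 183 in clone 19. This shift is a description only: Il33 led to the choice of the set, and Il1rl1 passed the filter through its parental libraries and had to be lower.

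Of the 7 other receptors of the family, Il18rap alone passed the filter. It encodes the accessory chain of the IL-18 receptor and fell from a parental mean of 10.8 ± 0.139 RPKM to 2.71 ± 0.321 (clone 1) and 2.23 ± 0.173 (clone 19) (log2 differences -1.82 and -2.05, adjusted p = 2.8e-09 and 1.3e-09, limma). Il18r1, the chain that binds IL-18, was at most 0.0518 RPKM in any library. The decoy receptor Il1r2 reached 0.06, the IL-36 receptor Il1rl2 0.145 and the inhibitory receptor Sigirr 0.137 RPKM.

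In the gene order of GRCm38, Il1r2, Il1r1, Il1rl2, Il1rl1, Il18r1 and Il18rap follow each other directly. Il1r1 and Il18rap, which reached 1 RPKM in every library, were lower in both clones, while Il1rl1 passed the filter in parental cells only and could only be lower. The measured genes on either side, Map4k4 and Mfsd9, fell too, with fitted log2 differences of -0.21 and -0.16 for Map4k4 and -0.28 and -0.39 for Mfsd9. Il1rn, by contrast, stood alone: its neighbours Il1f10 and Psd4 were under the filter, with parental means of 0 and 0.092 RPKM, and the nearest tested gene on one side, Ehmt1, fell (-0.51 and -0.42, adjusted p = 2.6e-08 and 1.4e-07, limma). Next to Il33, Ranbp6 rose by a smaller step (0.22 and 0.24, adjusted p = 0.0024 and 0.0016, limma) and Trpd52l3 was near 0. On the side of Ranbp6, Ermp1, 4 genes away, rose by 1.14 and 1.12 (adjusted p = 1.4e-10 and 1.8e-10, limma). Ric1 (0.60 and 0.59) and 9930021J03Rik (0.21 and 0.18) rose there too. Uhrf2, on the other side, was called in clone 1 only, and lower (-0.07, adjusted p = 0.016, limma). With neighbouring genes subtracted, the Il33 values were 1.29 and 1.80.

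**Figure D3:**
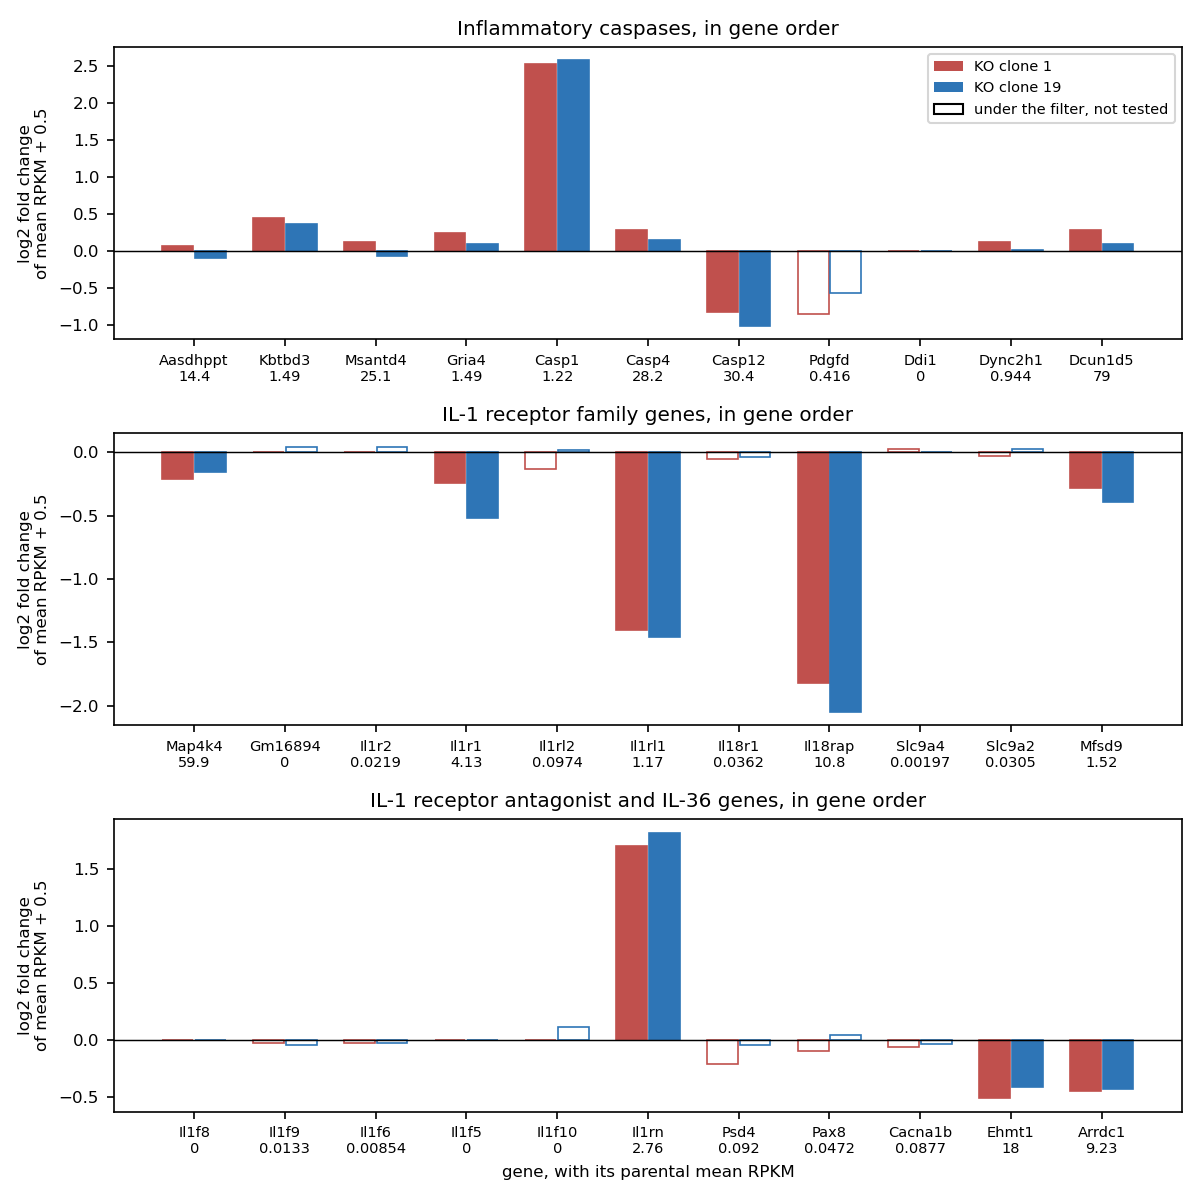
Log2 fold change of the mean RPKM + 0.5 of each clone against parental cells for genes in the order of GRCm38, with the parental mean RPKM under each name. Open bars mark genes under the filter, Casp1 and Casp12 stand on either side of Casp4 with bars in opposite directions, and Il1r1, Il18rap and Il1rl1, the last measured through its parental libraries only, point down.

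Casp1, the protease that matures IL-1β and IL-18, had the largest fitted difference of the 8 measured genes. It stood at 1.21, 0.983 and 1.48 RPKM in parental cells, 9.10, 9.47 and 9.60 in clone 1, and 9.84, 9.35 and 10.1 in clone 19. All clone libraries were at least 9 RPKM and all parental ones under 1.5 RPKM. Mean RPKM was 7.67 times higher in clone 1 and 7.97 times higher in clone 19, with fitted log2 differences of 2.53 ± 0.09 and 2.58 ± 0.09. Among all tested genes, 5 had a larger rise in clone 1 and 2 in clone 19, a rank that only describes, since this rise led to the choice of the set. The clones were not told apart (0.05, 95% interval -0.14 to 0.24, adjusted p = 0.66, limma).

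Casp4, which senses cytosolic lipopolysaccharide, was already the most abundant of the set in parental cells. Its libraries read 27.3, 29.0 and 28.2 RPKM in parental cells, 32.8, 33.8 and 36.2 in clone 1, and 30.1, 32.3 and 31.8 in clone 19. Groups did not overlap, with clone 1 highest, yet the steps were small at 0.28 ± 0.04 in clone 1 and 0.16 ± 0.04 in clone 19. Clone 19 was 0.12 lower than clone 1 (log2 difference -0.12, 95% interval -0.21 to -0.03, adjusted p = 0.029, limma). This call is fragile: without clone 1 replicate 3 or clone 19 replicate 1 the adjusted p was 0.11, and with neighbouring genes subtracted the difference was 0.01 (adjusted p = 0.83, limma), while adjusted p ranged from 0.012 to 0.83 over all settings.

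Casp1, Casp4 and Casp12 lie side by side in the gene order. Casp12, a member of the same inflammatory group that is linked to stress at the endoplasmic reticulum, fell from a parental mean of 30.4 ± 0.749 RPKM to 16.9 ± 0.96 (clone 1) and 14.8 ± 0.452 (clone 19) (log2 differences -0.83 and -1.01, adjusted p = 1.3e-08 and 3.2e-09, limma). The 3 neighbours therefore differed in direction and size, with Casp1 and Casp4 higher and Casp12 lower in the clones. Per library the ratio of Casp1 to Casp4 RPKM was 0.0339 to 0.0525 in parental cells, 0.266 to 0.28 in clone 1 and 0.289 to 0.327 in clone 19, and that of Casp12 to Casp4 went from 1.06 to 1.11 in parental cells to 0.485 to 0.497 and 0.453 to 0.491. On the other side of Casp1, Gria4 rose by 0.24 in clone 1 (adjusted p = 0.01, limma) and stood at 0.09 in clone 19 (adjusted p = 0.25, limma).

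The upstream sequences of Casp1 and Casp4 are shown because these adjacent genes had very different steps. Both are 250 bases on the + strand of GRCm38.p6 before a RefSeq start, at chr9:5298267-5298516 for Casp1 and chr9:5308599-5308848 for the first of 2 overlapping Casp4 windows. Capitals mark a pair of overlapping matches to the NF-κB consensus in Casp4.
Casp1: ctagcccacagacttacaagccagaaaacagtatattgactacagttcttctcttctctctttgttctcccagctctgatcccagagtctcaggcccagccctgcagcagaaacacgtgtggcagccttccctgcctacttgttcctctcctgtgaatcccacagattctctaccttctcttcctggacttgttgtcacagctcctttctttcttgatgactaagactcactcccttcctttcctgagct
Casp4 start 1: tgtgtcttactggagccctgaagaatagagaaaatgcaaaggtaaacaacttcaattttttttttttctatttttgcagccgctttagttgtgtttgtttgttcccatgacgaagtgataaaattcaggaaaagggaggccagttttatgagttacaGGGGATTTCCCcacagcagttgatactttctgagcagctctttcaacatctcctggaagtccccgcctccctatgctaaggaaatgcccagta
The Casp4 matches begin 93 and 92 bases before the start. None of the 5 motifs matched in the Casp1 window. The NF-κB consensus was present in 3 of the 16 windows of the set, the other Casp4 window and Il1r1 start 2 included, against 3.90% of all windows.

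Of 15 inflammasome sensors and adaptors, 6 passed the filter. In each clone 4 rose and 2 fell, against 39.8% higher and 32.6% lower of all tested genes in clone 1 and 36.7% and 32.3% in clone 19, shares that also stand behind the list counts that follow. Aim2, Naip2, Naip6 and Nek7 (0.18 and 0.09) rose. The genes that fell, Dpp8 (-0.24 and -0.24) and Dpp9 (-0.38 and -0.28), encode peptidases. Like Nek7, they are neither sensors nor adaptors. The median log2 fold change of all 6 was 0.68 in clone 1 and 0.32 in clone 19, against 0.03 and 0.02 over all tested genes. Naip6 was under 1 RPKM in all parental libraries and passed the filter through the clones, so it had to be higher, and without it 3 rose and 2 fell with medians of 0.18 and 0.09. Aim2, a sensor of cytosolic DNA, measured 1.44, 1.39 and 1.64 RPKM in parental cells, 6.67, 6.41 and 6.36 in clone 1, and 3.75, 4.34 and 4.01 in clone 19. It rose by 1.81 ± 0.06 in clone 1 and 1.19 ± 0.06 in clone 19 (adjusted p = 1.1e-09 and 3.1e-08, limma), and was lower in clone 19 than in clone 1 (-0.62, adjusted p = 3.7e-05, limma). Naip2, a sensor of bacterial secretion systems, followed the same order with log2 fold changes of 1.18 in clone 1 and 0.55 in clone 19 (adjusted p = 2.5e-09 and 1.4e-06, limma). Naip6, a sensor of flagellin, averaged 0.409 RPKM in parental cells, 1.59 in clone 1 and 0.933 in clone 19 (log2 differences 1.20 and 0.65). Naip genes are near-identical copies, so their reads may be split among them, and the clone 19 value of Naip6 was 1.02 with a pseudocount of 0.1.

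The adaptor that links most sensors to caspase-1 was close to 0. Pycard, which encodes that adaptor ASC, ran from 0.0143 to 0.128 RPKM. Nlrp3 stood at 0.0158 to 0.0745 RPKM, Nlrc4, the partner of the Naip proteins, at most at 0.0105, and Nlrp1a and Nlrp1b were listed at 0 in all libraries. Caspase-1 RNA was thus measured at 9.10 to 10.1 RPKM in clones whose ASC RNA was under 0.15 RPKM.

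**Figure D4:**
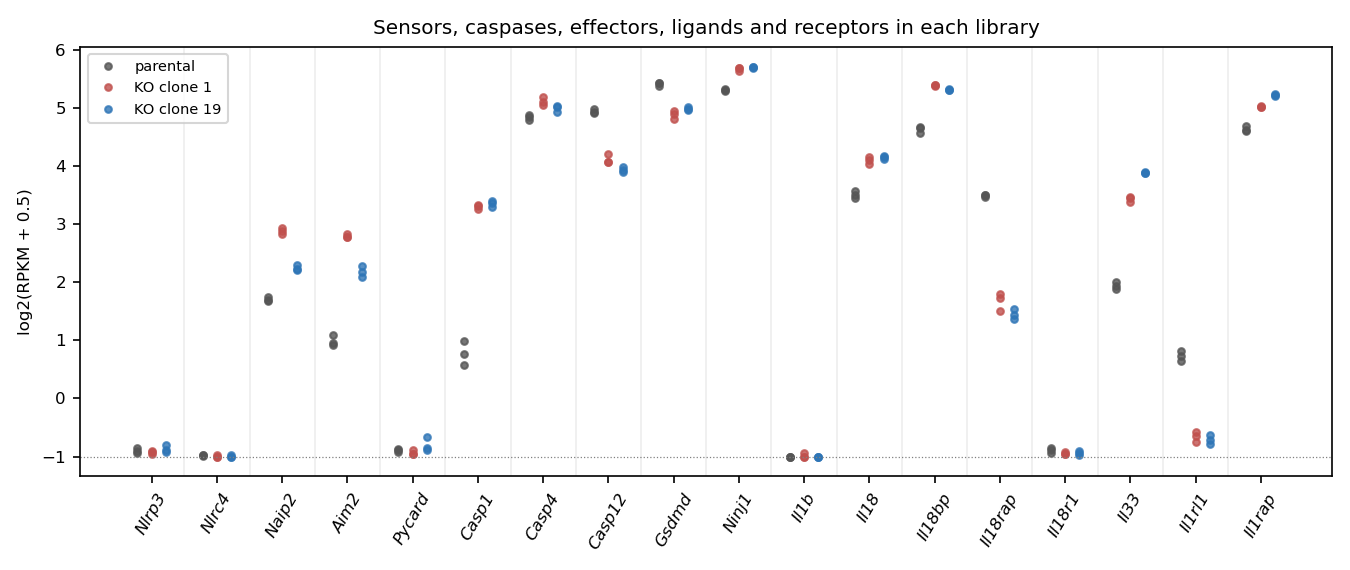
Log2(RPKM + 0.5) in each library for sensors, the adaptor Pycard, caspases, effectors, ligands and receptors, where the dotted line at -1 is 0 RPKM. Pycard, Nlrp3, Nlrc4, Il1b and Il18r1 lie at or near that line in all groups, while Casp1, Aim2, Naip2 and Il33 are higher and Casp12, Gsdmd, Il18rap and Il1rl1 lower in the clones.

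Downstream of the caspases, gasdermin D RNA went the other way from Casp1. Gsdmd fell from a parental mean of 42.2 ± 0.849 RPKM to 29.3 ± 1.4 (clone 1) and 31.2 ± 0.517 (clone 19) (log2 differences -0.52 and -0.43, adjusted p = 1.2e-07 and 6.4e-07, limma). Serpinb1a, an inhibitor of neutrophil proteases and of inflammatory caspases, fell from a parental mean of 7.34 ± 0.216 RPKM to 2.66 ± 0.176 and 3.32 ± 0.297 (log2 differences -1.31 and -1.04, adjusted p = 1.2e-08 and 9e-08, limma). Capn1, a calpain of the kind that can cut the IL-1α precursor, fell by 0.44 and 0.30 on the log2 scale (adjusted p = 6.7e-08 and 1.7e-06, limma). Other members rose, of which 2 are named after their values were seen: Capn2, a more abundant calpain at a parental mean of 125 RPKM (0.21 and 0.09, adjusted p = 2.7e-06 and 0.0022, limma), and Ninj1, which ruptures the membrane of dying cells (0.35 and 0.39, adjusted p = 9.2e-08 and 4.5e-08, limma). Of the 8 measured pyroptosis effectors and protease inhibitors out of 10, the clone 1 counts were 4 up and 4 down and the clone 19 counts 2 up and 4 down.

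The other caspases and their regulator were mixed in direction. Of the 8 measured genes of that list of 9, Casp12 included, 3 rose and 5 fell in each clone, with medians of -0.15 and -0.16. Cflar, the caspase-8 regulator cFLIP, fell by a small step in clone 1 (-0.14, adjusted p = 0.026, limma) and also fell in clone 19 (-0.43, adjusted p = 1.9e-05, limma). With neighbouring genes subtracted its clone 1 value was -0.30. Its call in clone 1 was lost with any parental library or clone 1 replicate 2 left out and with quantile normalization (adjusted p 0.051 to 0.12, and 0.00031 to 0.12 over all settings, limma).

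Receptor signalling genes showed no common direction. Of 13 measured of 16, the clone 1 counts were 5 up and 4 down and the clone 19 counts 3 up and 5 down, with medians of 0.06 and 0.01. Peli1, a ubiquitin ligase for IRAK proteins, rose from a parental mean of 17.5 ± 0.497 RPKM to 22.9 ± 0.0581 and 26.1 ± 0.684 (log2 differences 0.37 and 0.56, adjusted p = 5.1e-07 and 2.2e-08, limma), or by 0.20 and 0.31 with neighbouring genes subtracted. Irak1, the kinase recruited by MyD88, fell by 0.33 and 0.23 on the log2 scale (adjusted p = 7.9e-07 and 1.6e-05, limma). Ube2n, the ubiquitin conjugase that works with TRAF6, fell by 0.45 and 0.37 (adjusted p = 4.4e-06 and 2.8e-05, limma), but with neighbouring genes subtracted its values were -0.22 in clone 1 and -0.08 in clone 19 (for clone 19, adjusted p = 0.19, at most 0.00021 under the other settings, limma).

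Among 15 NF-κB subunits, kinases and inhibitors, all measured, the clone 1 counts were 5 up and 6 down and the clone 19 counts 7 up and 5 down, with medians of 0.02 and 0.04. Nfkbiz, the nuclear cofactor IκBζ that IL-1 induces strongly, was the most changed of them: 21.1, 21.5 and 20.5 RPKM in parental cells, 8.51, 8.91 and 8.48 in clone 1, and 10.8, 9.97 and 10.1 in clone 19. It fell by 1.24 in clone 1 and 1.00 in clone 19 on the log2 scale (adjusted p = 3.9e-10 and 2.1e-09, limma). Its relative Bcl3 fell as well (-0.64 and -0.45, adjusted p = 4.4e-08 and 8.9e-07, limma). Tnip1, which binds the deubiquitinase A20 and restrains the pathway, rose from a parental mean of 16.4 ± 0.383 RPKM to 25.9 ± 0.851 and 26.4 ± 0.121 (log2 differences 0.65 and 0.67, adjusted p = 7.3e-09 and 6e-09, limma), or by 0.38 and 0.42 with neighbouring genes subtracted. Tnfaip3, which encodes A20 itself and is named after its values were seen, fell (-0.43 and -0.49, adjusted p = 3.2e-06 and 1.2e-06, limma).

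Genes known to be induced by IL-1 in stromal and epithelial cells moved in both directions. Of 14 measured of 19, 6 rose and 6 fell in each clone, where 39.8% of all tested genes were higher and 32.6% lower in clone 1 and 36.7% and 32.3% in clone 19. The medians were -0.04 and 0.02. Mmp3, which encodes the matrix protease stromelysin-1, averaged 4.64 ± 0.0804 RPKM in parental cells, 0.719 ± 0.158 in clone 1 and 0.552 ± 0.128 in clone 19 (log2 differences -2.08 and -2.30). Because it passed the filter through its parental libraries only, it had to be lower and its p is not given, and without it 6 rose and 5 fell of 13. The collagenase gene Mmp13 had a like parental level, 4.64 ± 0.44 RPKM, and rose to 14.8 ± 0.857 and 12.5 ± 0.7 (1.58 and 1.34, adjusted p = 4.1e-09 and 1.6e-08, limma). Ccl7, a chemokine for monocytes, fell from a parental mean of 48.5 ± 2.18 RPKM to 18.1 ± 1.61 and 18.8 ± 1.44 (-1.40 and -1.35, adjusted p = 8.7e-09 and 1.3e-08, limma).

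**Figure D5:**
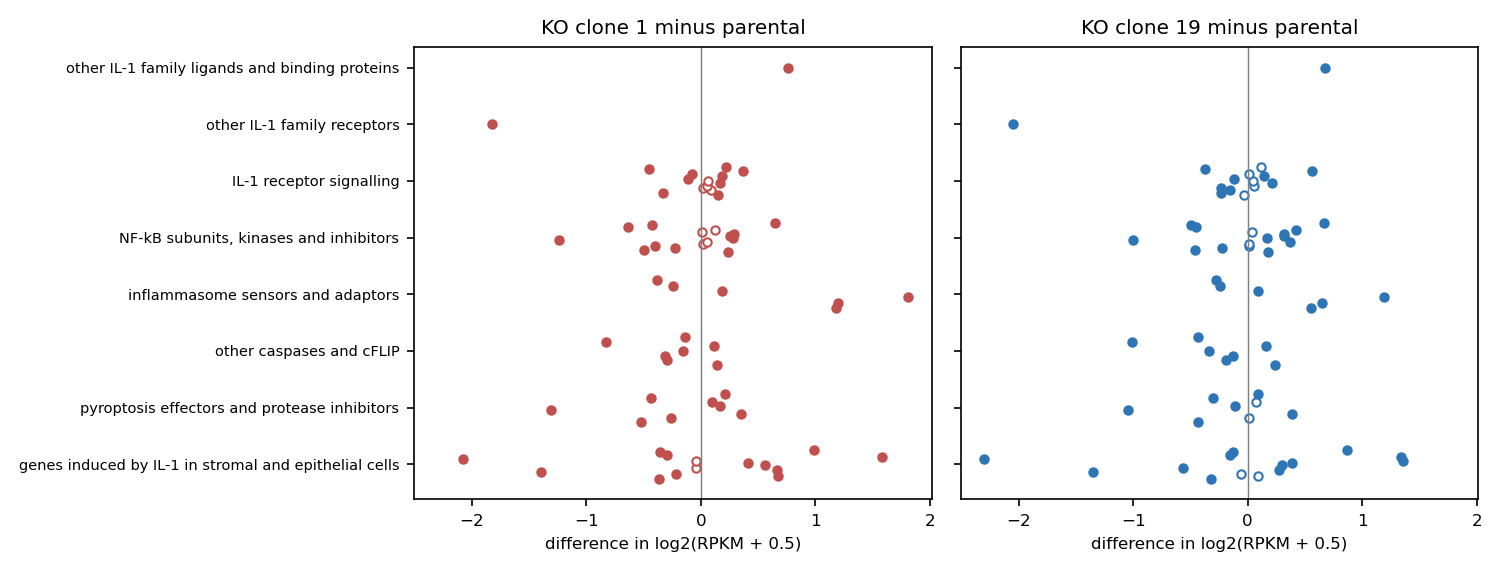
Difference in log2(RPKM + 0.5) of each clone minus parental for the measured genes of the 8 lists of related genes, 1 point per gene, with 1 gene left out, filled where the adjusted p is under 0.05. Points lie on both sides of 0 in every list with more than 1 measured gene, and the inflammasome list has its 3 largest values, Aim2, Naip6 and Naip2, above 0.

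Over the 8 lists, 66 of 97 genes were measured. In clone 1, 28 rose and 28 fell (27 each of 64 without Mmp3 and Naip6), or 84.8% called against 72.4% of all tested genes, and in clone 19, 26 rose and 28 fell (25 and 27 without these), or 81.8% against 69.0%. The median log2 fold change over the 66 genes was 0.03 and 0.01, against 0.03 and 0.02 over all tested genes. The p-values of these comparisons measure the spread between the libraries only, since the labels do not say whether replicates were separate cultures.

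The clones were then compared with each other, a comparison that the choice of the 10 genes did not use. Of the 8 measured, 4 were called different, against 43.0% of all tested genes. Il33 and Il1rap were higher, as 18.5% of tested genes were, and Il1r1 and Casp4 lower, as 24.5% were, in clone 19. The libraries of these 4 did not overlap between the clones, which held for 51.5% of tested genes. Each of the 4 differed by less than 2-fold between the clones, and 0.461% of tested genes were called with a difference of at least 2-fold. The median of the 8 was 0.05 on the log2 scale, against -0.02 over all tested genes. Casp1, Il1rn, Il18 and Il1rl1 had overlapping libraries in both clones and intervals that held 0, and Il18 was called higher in clone 19 only with neighbouring genes subtracted (0.23, adjusted p = 0.0027, against 0.20 to 0.81 under the other settings, limma). Of the 66 measured genes of the lists, 20 were higher and 20 lower in clone 19, and 4 of the 6 measured inflammasome genes were lower, among them Naip6, which would not have passed the filter without clone 1, and 1 was higher.

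For the 3 genes that led to the choice, the tested genes with the most similar pattern over the 9 libraries were found by the root mean square difference of log2(RPKM + 0.5), centred on parental cells. Closest to Casp1 were Lgals7 (0.158) and Map2 (0.215), which encode a galectin and a neuronal microtubule protein, and an ID without a matched name (0.261). Il33 was nearest to Itgb8 (0.167), which encodes an integrin chain, then Rap1gap (0.197) and Kcns3 (0.202). Il1rn lay nearest to Tmem178 (0.096), Plac1 (0.133) and Kcns3 (0.137). Rap1gap, Kcns3 and Tmem178 were under 1 RPKM in all parental libraries and passed the filter through the clones, so they had to be higher. The pseudocount shrinks the change of such low genes. Mean RPKM of Tmem178 was 11.4 and 11.0 times higher in clone 1 and clone 19, against 3.65 and 3.97 times for Il1rn. Lgals7 went from 3.62 ± 0.172 RPKM in parental cells to 21.4 ± 1.14 in clone 1 and 26.0 ± 0.63 in clone 19, and Itgb8 from 3.73 ± 0.168 to 11.0 ± 0.386 and 12.9 ± 0.265. None of these belongs to the IL-1 lists.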

How the data were processed

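The authors deposited 1 table of RPKM values for 28059 Entrez gene IDs, with 1 column for each of the 9 libraries. Per the labels' protocols, a column kit gave total RNA and a TruSeq RNA kit the libraries. Per the submitters' processing notes, GSNAP, DESeq and the build NCBIM37 were used. How reads were counted, on which annotation, and what each tool did is not given in the sources used here. Comparing RPKM between libraries assumes a similar RNA composition. IDs were named through RefSeq (24998) and GENCODE M21 (16), and 3045 stayed unnamed. Because the build differs, these tables gave only names, gene order, upstream sequences and exon lengths. The GENCODE exon lengths entered the estimates of depth and reads, which are therefore approximate. Depth per library was estimated as a median over genes with 1 annotated transcript that were detected in that library alone. Each was taken to hold 1 read, which gives no exact counts, so count tests were left out.

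Log2(RPKM + 0.5) values were fitted with limma 3.58.1 under R 4.3.3, with a mean-variance trend, for 12568 genes of at least 1 RPKM in at least 3 libraries, with all 9 libraries in 1 model of the 3 groups. Intervals are 95% intervals from limma's moderated fit. Adjustment was by Benjamini-Hochberg within a contrast, and a call needs an adjusted p under 0.05. The fit was tested on simulated data. Alternatives were pseudocounts of 0.1 and 1, quantile normalization, median-ratio scaling, dropping the filter or raising it to 3 RPKM, array quality weights, no trend, fits of only the groups compared, a replicate block, subtraction of the 50 nearest genes, and each library left out. Named were the 10 genes, and from each of 8 lists up to 3 genes with the largest mean change called in 1 direction in both clones (otherwise the largest called). Also named were the 3 nearest patterns outside the 10 genes for Casp1, Il33 and Il1rn, gene neighbours and Cdk8. The 10 genes and the lists were chosen with earlier results of these data known, so no list is independent evidence. The values of 1 list gene are not reported here, though it is in the list counts.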

Additional observations from a re-analysis of the deposited data

Results flagged for a closer look

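Of the 8 measured genes, 4 differed between the 2 knockout clones by limma's test of the difference itself (clone 19 minus clone 1, log2 scale): Il33 by 0.45, Il1r1 by -0.27, Il1rap by 0.21 and Casp4 by -0.12. The clones thus carry the same labelled genotype with different levels of these transcripts in all 3 libraries of each. The Casp4 call is the fragile one: its adjusted p was 0.11 without clone 1 replicate 3 or clone 19 replicate 1 (limma). With neighbouring genes subtracted its difference was 0.01. By the same test 43.0% of all tested genes differed between the clones, each of which is a single line.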

How the results depend on the processing

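Of the 10 genes, 3 to 4 were called between the clones over all settings, against 43.0% of all tested genes in the main fit. The share under each other setting is not given, so nothing is read from the counts in this paragraph. Il1rl1 left the test with a filter at 3 RPKM or any 1 parental library left out. With 1 library left out, counts over the lists were 51 to 58 in clone 1, 53 to 55 in clone 19 and 35 to 39 between the clones, and 27 between the clones with neighbouring genes subtracted. Signs turned in clone 19 minus clone 1 for Il1rl1 (0.08) and Casp4 (0.01) with neighbouring genes subtracted and for Ccl7 without clone 19 replicate 1 (-0.01), where leaving out 1 library gave a range of -0.01 to 0.12. The cause was not tested. Of the values for the 10 genes between the clones, 148 kept direction and call, 5 lost the call (all Casp4), 1 gained it and 2 turned; for named list genes the numbers were 1076, 48, 3 and 1. With a replicate block, 4 of the 10 genes were called between the clones, and over the lists 56, 54 and 38 in clone 1, clone 19 and between the clones. Same-numbered libraries correlated between -0.035 and 0.123 in their deviations, and differently numbered ones between -0.140 and 0.081. These ranges overlap and do not decide whether the numbers pair the samples, and the main fit did not pair them. Levels under about 0.2 RPKM rest on few reads, which limits Il1a, Il1b and the clone levels of Il1rl1.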
